A study of Homo sapiens with 14 samples.

Results

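The 10 genes described here encode the Nodal and Activin ligands and their regulators: NODAL, GDF3, INHBA, LEFTY1, LEFTY2, CER1, FST, ACVR1B, FOXH1 and SMAD7. They were chosen by name as members of 1 signalling pathway, and all 10 were found among the 63677 gene IDs of the bulk count tables. Among the 17493 genes measured in single nuclei 8 of the 10 were found, and GDF3 and INHBA were not listed there. RNA was read in 12 bulk libraries of H9, an established human embryonic stem cell (hESC) line, and in the nuclei of 1 preparation of gastruloids, which are aggregates of hESC that elongate in culture.

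The bulk libraries fell into 5 groups: 2 of undifferentiated hESC kept in mTSER Plus on Matrigel, 3 of endoderm, 3 of endoderm with an sgRNA, 2 of foregut and 2 of foregut with an sgRNA. Endoderm was made with 100 ng/ml Activin A over 3 days, with the GSK-3 inhibitor CHIR-99021 at 5 μM on the first day and 0.5 μM on the second. Foregut was made by 3 days of endodermal and 3 days of foregut differentiation of a commercial pancreatic protocol, for which no Activin dose was stated. By their labels the endoderm libraries carried dCAS9-KRAB, a nuclease-dead Cas9 fused to a repressor domain and delivered by a lentiviral vector under puromycin selection, and the labels of the hESC and of the foregut without sgRNA do not mention it. Between endoderm and either of these groups, stage and vector therefore cannot be told apart. Whether the foregut without sgRNA carried the vector is not labelled, so in foregut sgRNA and vector cannot be told apart either. The labels give the sgRNA without its target, which the study's text places in LTR5, the long terminal repeat of the HERVK family. Foregut libraries took their groups from their titles, since the other labels of FG_ctl read hESC and those of FG_CRISPRi read endoderm without sgRNA. Gastruloids were grown from 800 cells per well with 3 μM CHIR-99021, for 24 h before aggregation and for 18 h with 10 μM Rock inhibitor after it, and were harvested at 72 h. No label says that replicates came from separate cultures, while the study's methods state that RNA-seq experiments had 2 or more biologically independent replicates. The p-values measure the spread between these libraries, and how the cultures were kept apart was not given.

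Nodal, GDF3 and the activins (dimers of the INHBA product) are secreted ligands of the TGF-β family, and ACVR1B is a type I receptor for them. The activated receptor phosphorylates SMAD2 and SMAD3, and FOXH1 is the forkhead factor that brings these SMADs to many targets. NODAL, LEFTY1, LEFTY2 and CER1 are themselves textbook targets of the pathway: the Lefty proteins and CER1 are secreted antagonists of Nodal, FST (follistatin) binds and neutralises activins, and SMAD7 blocks the receptor from inside the cell. In the embryo, Nodal signalling of high level specifies endoderm from the primitive streak, and the node and its surroundings express Nodal and Lefty genes again during left-right patterning. In culture, Activin A stands in for Nodal, so ligand added to the medium reaches the receptor whatever the cells transcribe.

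Gene reads per library ranged from 11583063 to 37152434, mitochondrial genes held 8.30% to 34.7% of them, and 3 reads corresponded to 0.0760 to 0.252 CPM, which are reads scaled to 1000000 per library. CPM values are further scaled by TMM, a factor that aligns the bulk of genes between libraries. Markers of the stages were summed by list, with endoderm and foregut taken without sgRNA. The 5 endoderm markers came to 18.0 to 30.8 CPM in hESC, where SOX17, GATA6 and GATA4 had 0 reads. In endoderm they came to 1213 to 1374 CPM. The 5 hESC markers came to 1106 to 1519 CPM in hESC and still to 926 to 1104 CPM in endoderm. In foregut they came to 161 to 214 CPM, with the pluripotency gene NANOG the 1 marker at 0 reads. The 4 foregut markers came to 236 to 299.5 CPM in foregut and 13.3 to 29.0 CPM in endoderm. The 5 neural markers came to 262 to 273 CPM in hESC, 103 to 150 CPM in endoderm and 116 to 141 CPM in foregut. The foregut libraries are a separate set from the others, so stage and set cannot be told apart. As a check of the sgRNA, reads over LTR5_Hs integrants came to 11.1, 12.8 and 11.3 CPM in endoderm and to 8.69, 9.51 and 11.5 CPM in endoderm with the sgRNA, which overlap. In foregut they came to 8.84 and 8.21 CPM without and 4.54 and 8.20 CPM with the sgRNA. Over LTR5B integrants, the subfamily whose consensus the study's methods name for the sgRNA, they came to 2.14, 2.25 and 1.66 CPM without and 1.14, 1.77 and 2.02 CPM with it in endoderm, which overlap. In foregut the LTR5B values were 7.46 and 6.01 CPM without and 3.30 and 2.19 CPM with the sgRNA, which do not overlap.

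On GRCh37 the members lay apart, except LEFTY1 (chr1:226073982-226099082) and LEFTY2 (chr1:226124298-226129083), near-identical neighbours on the minus strand whose lower coordinates are 50.3 kb apart. Uniquely mapped reads may be split unevenly between the pair. Exons of LEFTY2 overlap another gene on the same strand (ENSG00000248322), and those of FOXH1 and INHBA overlap KIFC2 and INHBA-AS1 on the other strand. Whether the counting used the strand was not given in the sources used here, so for FOXH1 and INHBA reads of the overlapping gene cannot be told apart, and for LEFTY2 the overlap is uncertain with or without strand. NODAL lay at chr10:72191692-72207707 and CER1 at chr9:14719722-14722731, both on the minus strand. The nearest LTR5B or LTR5_Hs integrant was 62 kb from FOXH1 and 496 to 6284 kb from the other members, and LTR5A integrants lay 24 kb from LEFTY2 and 54 kb from LEFTY1.

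Promoter windows of RefSeq (GRCh38.p14, 250 bases before to 50 bases after a start) were given for 7 of the 10 members, and they are shown for 3 of these 7 whose levels were highest in 3 different clusters of gastruloid nuclei: the ligand gene NODAL, the antagonist gene CER1 and FST, the most abundant member there. Each of these 3 windows overlapped a peak of accessible chromatin called over all gastruloid nuclei together. The 250 bases before the start are printed 5′ to 3′ on the gene's strand, for NODAL from chr10:70441682-70441931, for CER1 from chr9:14722734-14722983 and for FST from chr5:53480379-53480628. Capitals mark matches on either strand to CAGAC, a SMAD-binding motif, or to TGTGTATT, a form of the FOXH1 motif.
NODAL: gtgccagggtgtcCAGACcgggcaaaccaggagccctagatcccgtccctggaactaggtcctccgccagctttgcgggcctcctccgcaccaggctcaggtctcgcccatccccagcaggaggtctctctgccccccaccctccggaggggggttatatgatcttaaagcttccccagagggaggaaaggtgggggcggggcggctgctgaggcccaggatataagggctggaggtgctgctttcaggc
CER1: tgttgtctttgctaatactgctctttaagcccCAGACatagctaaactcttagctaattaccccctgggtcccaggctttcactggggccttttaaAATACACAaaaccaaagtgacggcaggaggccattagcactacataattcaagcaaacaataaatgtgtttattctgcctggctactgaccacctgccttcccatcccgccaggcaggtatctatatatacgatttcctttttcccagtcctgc
FST: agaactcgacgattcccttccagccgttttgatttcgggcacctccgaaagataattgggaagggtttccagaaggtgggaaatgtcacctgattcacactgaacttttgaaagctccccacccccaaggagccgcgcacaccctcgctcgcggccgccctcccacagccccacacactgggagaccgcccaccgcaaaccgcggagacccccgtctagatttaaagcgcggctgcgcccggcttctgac
The CER1 window held 1 match to TGTGTATT, a motif found in 0.766% of 35116 promoter windows, and 1 to CAGAC, found in 45.3%. The NODAL window held 1 match to CAGAC, and the FST window held neither. No member's window held TGTGGATT, another form of the FOXH1 motif (0.817% of windows), or the SMAD palindrome GTCTAGAC (0.202%). Matches of letters are a description and do not show that a factor binds there.

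Among all 35116 windows, 58.4% overlapped a peak. ACVR1B and SMAD7 each had 1 window that overlapped a peak and other windows that did not. The windows of GDF3 and INHBA, the members not listed in the nuclear RNA table, overlapped none. The outermost RefSeq gene starts of LEFTY1, LEFTY2, CER1, INHBA, FST and ACVR1B lay inside peaks. The start of NODAL lay 2752 bp from the nearest peak, that of FOXH1 1494 bp, that of GDF3 653 bp and that of SMAD7 358 bp. The NODAL window shown above lies within the gene (chr10:70431936-70447951), downstream of its outermost start. Peaks were called over all nuclei, so they cannot be assigned to a cluster here.

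**Figure D1:**
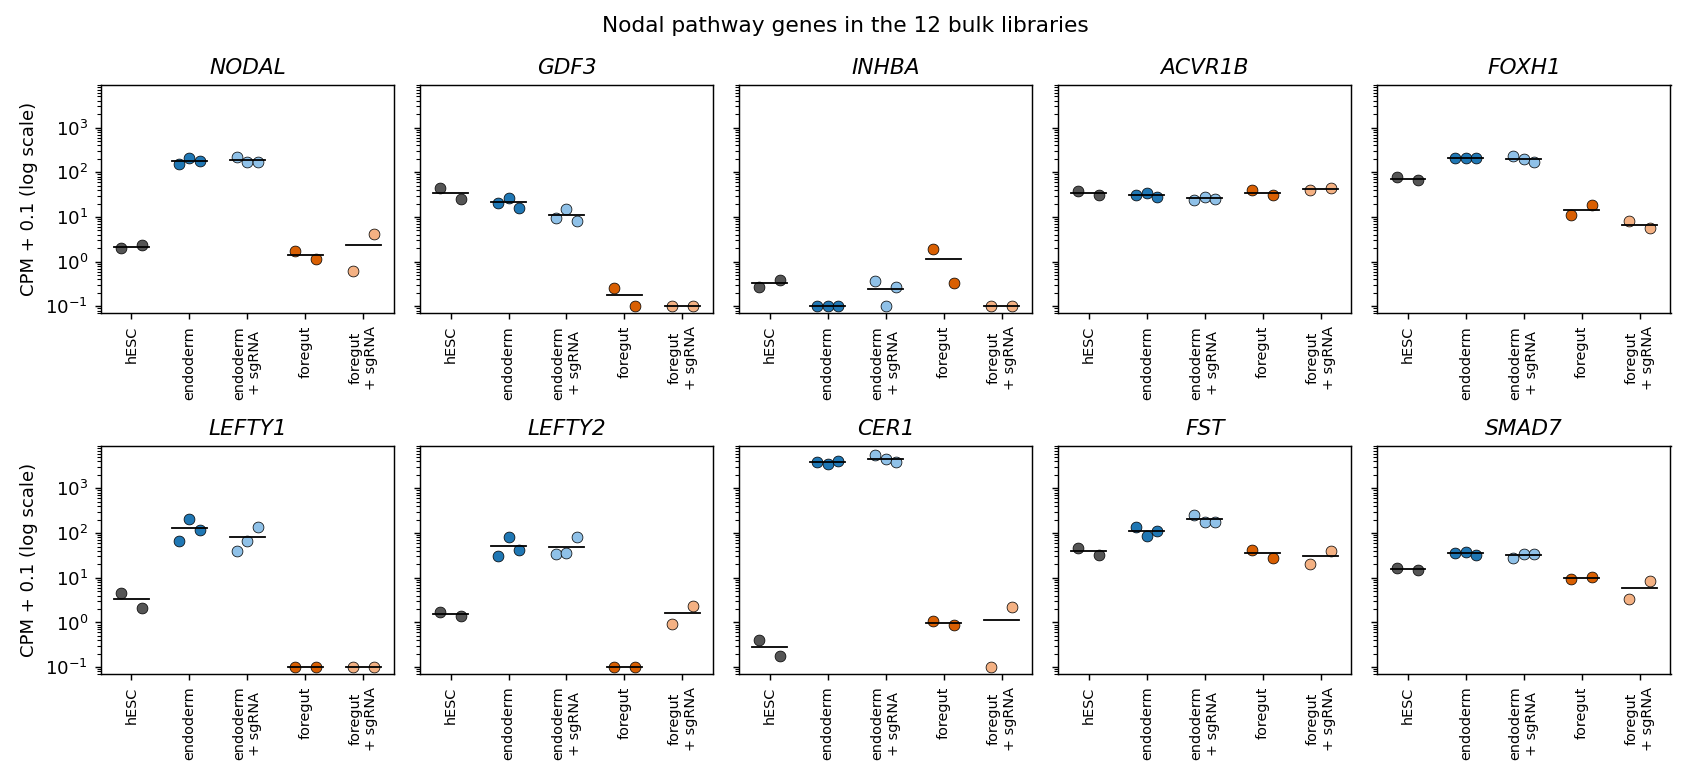
CPM plus 0.1 on a log scale (vertical axis) of each of the 10 genes in each of the 12 bulk libraries; points are libraries, colours are the 5 groups and lines are group means. NODAL, LEFTY1, LEFTY2 and CER1 stood high in the 6 endoderm libraries and low elsewhere, and ACVR1B stayed between 24.5 and 44.2 CPM.

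The first comparison asked how the pathway differs between hESC and endoderm. The ligand gene NODAL and the antagonist genes LEFTY1, LEFTY2 and CER1 rose together with FOXH1, SMAD7 and FST, so that 7 of the 10 members were higher in endoderm. The ligand gene INHBA was called lower on very few reads, GDF3 passed the adjusted p but not the fold limit of 2, and the receptor gene ACVR1B did not pass. Over all 20818 genes tested, 26% were called in either direction, 14.3% higher and 11.8% lower. The median log2 difference was 1.51 over the members and 0.04 over all genes tested. All p-values are from the quasi-likelihood test of edgeR, 2-sided, adjusted by Benjamini-Hochberg over the genes tested. Standard errors (SE) were derived from that test, as the size of the log2 difference divided by the square root of its F statistic. They are unreliable where a group had 0 reads. A call needed more than a 2-fold change with an adjusted p below 0.05.

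NODAL stood at 1.92 and 2.21 CPM in hESC and at 156, 214 and 180 CPM in endoderm without sgRNA. Every endoderm library was above both hESC libraries, a log2 difference of 6.47 ± 0.27 (SE, adjusted p = 8.07e-11). GDF3, a Nodal-related ligand that hESC express, stood at 43.96 and 24.99 CPM in hESC and at 20.8, 26.2 and 16.1 CPM in endoderm. The GDF3 groups overlapped, with a log2 difference of -0.71 ± 0.26 (adjusted p = 0.0435), and without hESC replicate 2 it passed both limits at -1.06 (adjusted p = 0.0253).

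INHBA, which encodes the activin A subunit, had 4 and 7 reads in hESC and 0 reads in the 3 endoderm libraries. Taking 3 reads over the endoderm group as the limit, it was at least 4.34-fold lower there (adjusted p = 0.0390). This call was lost without any 1 of the 5 libraries, with adjusted p between 0.0584 and 0.187. Transcripts of the agent that was added as a protein were thus at or near 0 in every endoderm library.

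Among the antagonists, CER1 had the widest difference of the 10 genes. It stood at 0.299 and 0.0804 CPM (7 and 2 reads) in hESC and at 3954, 3542 and 4094 CPM in endoderm, a log2 difference of 14.29 ± 0.39 (adjusted p = 1.96e-12). The small hESC counts set this value, which was 15.44 without hESC replicate 1 and 13.63 without hESC replicate 2. Per kilobase of exon, the endoderm level of CER1 was 3138 CPM, against 87.9 for NODAL, 69.5 for LEFTY1 and 22.6 for LEFTY2.

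LEFTY1 stood at 4.53 and 2.01 CPM in hESC and at 67.9, 209.5 and 117 CPM in endoderm, a log2 difference of 5.33 ± 0.69 (adjusted p = 0.00181). It was 6.02 without hESC replicate 1. LEFTY2 stood at 1.62 and 1.29 CPM in hESC and at 30.1, 82.7 and 42.4 CPM in endoderm, a log2 difference of 5.15 ± 0.52 (adjusted p = 0.000102). In both Lefty genes endoderm replicate 2 was the highest and replicate 1 the lowest, and for neither gene did the stages overlap.

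FST, the follistatin gene, stood at 45.3 and 32.0 CPM in hESC and at 134, 84.2 and 110 CPM in endoderm, a log2 difference of 1.503 ± 0.23 (adjusted p = 9.98e-05). SMAD7 stood at 16.1 and 15.1 CPM in hESC and at 35.1, 38.2 and 32.5 CPM in endoderm, a log2 difference of 1.17 ± 0.20 (adjusted p = 0.000236). Neither gene's groups overlapped. Beside these changes, the summed level of 5 mesoderm markers was 0.844 to 1.20 CPM in hESC and 45.3 to 70.4 CPM in endoderm, with none of the 5 at 0 reads in endoderm. The part of mesoderm-like cells in these levels was not tested, and in bulk samples fewer cells of a type and less RNA per cell cannot be told apart.

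On the receiving side, FOXH1 rose from 79.6 and 65.5 CPM in hESC to 205, 208 and 209 CPM in endoderm, a log2 difference of 1.52 ± 0.18 (adjusted p = 8.83e-06). The groups did not overlap. ACVR1B stood at 37.3 and 30.2 CPM in hESC and at 30.5, 33.8 and 28.2 CPM in endoderm, with a log2 difference of -0.13 ± 0.20 (adjusted p = 0.640). Its groups overlapped.

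Other genes of the pathway were counted from a list of 46 ligands, receptors, convertases, effectors, inhibitors and target factors, of which 45 were tested. In endoderm 18 were higher and 5 lower than in hESC, beside 14.3% higher and 11.8% lower among all genes tested. Of the 10 target transcription factors 8 were higher and none lower. SOX17, FOXA2, TBXT, NANOG and POU5F1 of the target list are also stage markers, so this count partly restates the stage. Of the 13 inhibitors 4 were higher and 1 lower, and of the 8 receptors and co-receptors 2 were higher and 1 lower. The endoderm factor SOX17 stood at 0 CPM in hESC and at 242 CPM in endoderm (adjusted p = 2.46e-11). MIXL1 and GSC, factors of the primitive streak, rose by 8.84 ± 0.34 and 8.21 ± 0.30 on the log2 scale (adjusted p = 8.07e-11 and 2.46e-11). Falls were smaller: the TGF-β co-receptor TGFBR3 by 1.21, the proprotein convertase PCSK5 by 1.20 and the SMAD corepressor SKIL by 1.08 on the log2 scale (adjusted p = 0.00205, 0.00649 and 0.00409).

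**Figure D2:**
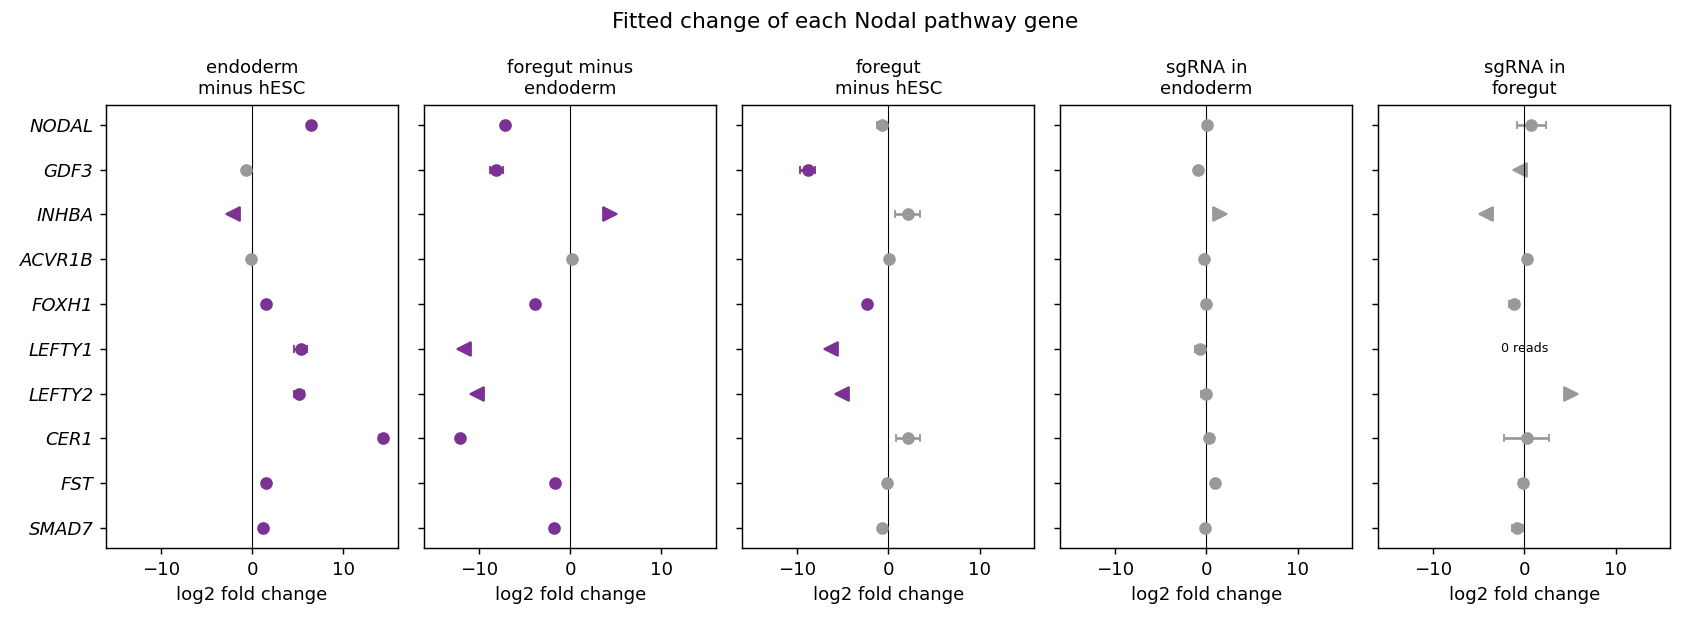
Fitted log2 fold change (horizontal axis) of each of the 10 genes in 5 comparisons. Circles are fitted values with their standard errors, triangles are lower bounds where 1 group had 0 reads, purple marks a call and grey none; the 2 sgRNA panels hold no purple symbol.

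The second comparison set foregut without sgRNA against the same endoderm libraries, so it shares its reference with the first. The genes that were high in endoderm fell: 8 members were lower in foregut, INHBA was higher and ACVR1B did not pass. Over all 21466 genes tested, 28.8% were called, 13.9% higher and 14.9% lower. The median log2 difference was -5.46 over the members, also with the 3 members that had a group at 0 reads set to their bounds, and -0.09 over all genes tested. Beside this fall, the summed level of 5 mesoderm markers was 45.3 to 70.4 CPM in endoderm and 2.94 to 3.78 CPM in foregut, with FOXF1 at 0 reads, and that of 5 hESC markers was 926 to 1104 and 161 to 214 CPM, with NANOG at 0 reads. Their part in the members' levels was not tested.

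NODAL stood at 1.64 and 1.04 CPM in foregut, a log2 difference of -7.10 ± 0.34 from endoderm (adjusted p = 3.53e-06). CER1 stood at 0.986 and 0.786 CPM, a log2 difference of -12.09 ± 0.29 (adjusted p = 3.19e-07). Both stood below 2 CPM in each foregut control library. LEFTY1 and LEFTY2 had 0 reads in both foregut control libraries. With 3 reads over the group as the limit, LEFTY1 was at least 3061-fold lower and LEFTY2 at least 1206-fold lower than in endoderm (adjusted p = 4.40e-05 and 5.54e-05).

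GDF3 stood at 0.164 and 0 CPM in foregut, 5 reads in all, with a log2 difference of -8.07 ± 0.75 from endoderm (adjusted p = 8.51e-05). All of its reads lay in foregut replicate 1, and with that library alone the difference was -6.90. FOXH1 stood at 11.2 and 18.0 CPM, a log2 difference of -3.82 ± 0.28 (adjusted p = 2.57e-05). Thus both genes were lower in each foregut library than in any library of the other stages.

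FST stood at 42.2 and 27.7 CPM in foregut, a log2 difference of -1.65 ± 0.28 (adjusted p = 0.00220). SMAD7 stood at 9.50 and 10.5 CPM, a log2 difference of -1.81 ± 0.24 (adjusted p = 0.000601). ACVR1B stood at 39.5 and 31.0 CPM, a log2 difference of 0.19 ± 0.23 (adjusted p = 0.515), with groups that overlapped. The receptor gene was thus the 1 member that passed neither this comparison nor the first.

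INHBA had 57 and 9 reads in the foregut control libraries (1.87 and 0.228 CPM) against 0 in endoderm, at least 20.2-fold higher (adjusted p = 0.0213). The call was lost without foregut control replicate 1 (adjusted p = 0.0748), without endoderm control replicate 1 (0.0684) and with the replicate number as a block (0.101). Replicate 1 held most of the reads.

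Of the 45 other pathway genes tested, 5 were higher and 16 lower in foregut than in endoderm, beside 13.9% and 14.9% of all genes tested. Among the lower ones were 8 of the 10 target factors, a list that shares genes with the stage markers. NANOG, a pluripotency factor, stood at 26.5 CPM in endoderm and 0 CPM in foregut (adjusted p = 1.23e-05), and the inhibin subunit gene INHA at 4.94 and 0 CPM (adjusted p = 0.000114). EOMES, a T-box factor that acts with Nodal in endoderm, fell by 8.59 ± 0.38 on the log2 scale (adjusted p = 2.66e-06). Rises were led by ligands of the TGF-β branch: TGFB2 went from 0.136 to 106 CPM (adjusted p = 2.09e-06) and TGFB3 from 0.541 to 3.35 CPM (adjusted p = 0.00488). The endoderm factor FOXA2 rose from 130 to 427 CPM (adjusted p = 0.000240).

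Against hESC, 4 members were lower in foregut (LEFTY1, LEFTY2, GDF3 and FOXH1) and none was higher. Over all 21191 genes tested 32.2% were called, 15.8% higher and 16.5% lower. That count of 6829 genes lay between 5058 and 10366 without 1 library, the highest being without foregut control replicate 1. By edgeR's test 4 of the 10 members had an unadjusted p under 0.05, as did 9404 of the 21191 genes. LEFTY1 and LEFTY2 were at least 76.1-fold and 33.9-fold lower with 3 reads over the group as the limit (adjusted p = 0.00176 and 0.00788), and GDF3 and FOXH1 had log2 differences of -8.82 ± 0.80 and -2.33 ± 0.32 (adjusted p = 0.000215 and 0.00114). With foregut replicate 1 alone the GDF3 difference was -7.67. The LEFTY2 call was lost without hESC replicate 1 (adjusted p = 0.130) or replicate 2 (0.0683).

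NODAL (adjusted p = 0.424), SMAD7 (0.119), FST (0.665) and ACVR1B (0.923) did not pass in this comparison. CER1 stood at 0.986 and 0.786 CPM in foregut against 0.299 and 0.0804 CPM in hESC (adjusted p = 0.230). It was called without foregut control replicate 1 (adjusted p = 0.0349) or replicate 2 (0.0112), and INHBA was called without foregut control replicate 2 (2.33e-05). Of the 43 other pathway genes tested, 14 were higher and 5 lower, beside 15.8% and 16.5% of all genes tested. TGFB2 rose by 6.41 ± 0.32 and FOXA2 by 4.48 ± 0.33 on the log2 scale (adjusted p = 3.00e-05 and 0.000105), and SOX17 stood at 24.1 CPM against 0 CPM in hESC (adjusted p = 7.99e-05). The pluripotency factor POU5F1 and TDGF1, the co-receptor that Nodal needs, had log2 differences of -6.97 and -5.97 (adjusted p = 7.99e-05 and 2.32e-05), and NANOG stood at 0 CPM against 37.1 CPM (adjusted p = 9.33e-05).

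The order of the group means is given here as a description. For NODAL, LEFTY1, LEFTY2, CER1, FOXH1, SMAD7 and FST the highest means were those of both endoderm groups, which overlapped except for FST. For GDF3 the mean fell in the order hESC, endoderm, endoderm with sgRNA, foregut (34.5, 21.1, 11.02 and 0.0822 CPM), with hESC and endoderm overlapping. ACVR1B means lay between 25.9 CPM in endoderm with sgRNA and 42.5 CPM in foregut with sgRNA.

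Over the 12 libraries and 14230 genes whose mean reached 1 CPM, the genes most like NODAL in log2 CPM were EOMES (Pearson r = 0.993), BHLHE40 (0.989) and CER1 (0.988). Those most like CER1 were BHLHE40 (0.992), BMP2 (0.991) and B4GALT4 (0.991). LEFTY1 was most like ENSG00000186354 (0.990), OTX2 (0.990) and CLVS2 (0.989). For LEFTY2 the highest values were lower, with GPSM2 (0.960), ZSWIM5 (0.959) and LDHA (0.958). These libraries come from 5 groups that differ in stage, so the values describe the stages shared and not a relation within a stage.

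The third comparison asked whether the LTR5 sgRNA changed the pathway in endoderm. No member was called, against 0.0343% of the 20407 genes tested (7 genes, 0.0049% higher and 0.0294% lower). By edgeR's test 2 members (FST and GDF3) had an unadjusted p under 0.05, as did 1049 of all genes, and voom with limma and DESeq2 called none either. The median log2 difference was -0.04 over the members and -0.02 over all genes tested. None of the 45 other pathway genes tested was called.

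FST stood at 134, 84.2 and 110 CPM without the sgRNA and at 259, 178 and 174 CPM with it. Each library with the sgRNA was above each one without, a log2 difference of 0.90 ± 0.21 (adjusted p = 0.327). GDF3 stood at 20.8, 26.2 and 16.1 CPM without and at 9.56, 15.3 and 8.24 CPM with the sgRNA. Each library with it was below each one without, a log2 difference of -0.92 ± 0.26 (adjusted p = 0.491). With no filter on low counts the adjusted p was 0.00317 for FST and 0.0221 for GDF3, and with DESeq2 0.0442 and 0.168, with folds that stayed under 2.

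Cell type markers moved beside these values. The summed level of 5 hESC markers was 926 to 1104 CPM without and 607 to 865 CPM with the sgRNA, and that of 5 mesoderm markers was 45.3 to 70.4 CPM without and 83.4 to 125 CPM with it, with no marker of either list at 0 reads. The 5 endoderm markers summed to 1213 to 1374 and 1045 to 1434 CPM, which overlap. The part of these markers in the FST and GDF3 values was not tested.

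NODAL stood at 222, 169 and 167 CPM with the sgRNA, a log2 difference of 0.03 ± 0.19 from endoderm without it (adjusted p = 0.9995). CER1 stood at 5442, 4481 and 3894 CPM with it, a log2 difference of 0.26 ± 0.20. Both overlapped the libraries without sgRNA. LEFTY1 stood at 40.6, 66.1 and 134 CPM and LEFTY2 at 33.2, 35.7 and 79.8 CPM with the sgRNA, with log2 differences of -0.69 ± 0.58 and -0.04 ± 0.48.

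Replicate 3 was the highest of the libraries with the sgRNA for both Lefty genes. In endoderm without sgRNA the standard deviation was 71.9 CPM around a mean of 131 CPM for LEFTY1, 27.5 CPM around 51.8 CPM for LEFTY2 and 29.1 CPM around 183.3 CPM for NODAL, so relative to the mean both Lefty genes varied more than NODAL. With the reads of both Lefty genes summed, the log2 difference was -0.47 ± 0.53 (adjusted p = 0.9995).

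FOXH1 stood at 236, 198 and 173 CPM with the sgRNA and SMAD7 at 27.3, 33.2 and 34.6 CPM, with log2 differences of -0.03 ± 0.17 and -0.14 ± 0.18. ACVR1B stood at 24.5, 27.4 and 25.7 CPM, each below the libraries without the sgRNA, with a log2 difference of -0.24 ± 0.18 (adjusted p = 0.9995). The FOXH1 groups overlapped in endoderm, while in foregut, described below, they did not. FOXH1 is the member nearest to an LTR5B integrant (62 kb), and the part of that distance in its values was not tested. INHBA had 4, 0 and 2 reads with the sgRNA and none without.

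In foregut the sgRNA was compared over 2 libraries each, and LEFTY1 could not be tested because it had 0 reads in all 4. None of the 9 members tested was called, against 0.15% of 20044 genes (0.0449% higher and 0.105% lower). By edgeR's test 2 members had an unadjusted p under 0.05 (FOXH1 and LEFTY2), as did 703 of the 20044 genes. Among the members voom with limma and DESeq2 called none. The median log2 difference was -0.19 over the members, also with those at 0 reads in 1 group set to their bounds, and -0.06 over all genes tested. None of the 44 other pathway genes tested was called.

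LEFTY2 had 0 reads in both foregut libraries without the sgRNA and 23 and 50 reads (0.815 and 2.19 CPM) with it, which is at least 35.0-fold with 3 reads over the group as the limit (adjusted p = 0.995). With all 12 libraries in 1 fit it was the 1 member called (adjusted p = 0.0155). FOXH1 stood at 11.2 and 18.0 CPM without and at 7.87 and 5.48 CPM with the sgRNA, a log2 difference of -1.12 ± 0.53 (adjusted p = 0.995). Of the 9 members tested, LEFTY2, FOXH1, SMAD7, INHBA and ACVR1B had groups that did not overlap. The share of all genes tested whose groups did not overlap was not computed. With 2 libraries a group this is a description and not a result about the members.

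NODAL stood at 0.532 and 4.03 CPM and CER1 at 0 and 2.105 CPM in foregut with the sgRNA, so that replicate 2 lay above and replicate 1 below the libraries without it. Together with LEFTY2 and ACVR1B, 4 members were highest of the 4 foregut libraries in that replicate 2. INHBA and GDF3 had 0 reads in both libraries with the sgRNA, against 57 and 9 reads and against 5 and 0 reads without it. SMAD7 stood at 3.26 and 8.38 CPM, FST at 20.6 and 40.3 CPM and ACVR1B at 40.8 and 44.2 CPM with the sgRNA, with log2 differences of -0.78 ± 0.59, -0.19 ± 0.39 and 0.28 ± 0.37. The summed level of 4 foregut markers was 236 to 299.5 CPM without and 169 to 181 CPM with the sgRNA, which do not overlap, and that of 5 hESC markers was 161 to 214 and 186 to 237 CPM, with NANOG at 0 reads without the sgRNA and at a mean of 0.0354 CPM with it. In replicate 1 mitochondrial genes held 34.7% of the reads, the highest share of the 12 libraries. The part of these markers and of the mitochondrial share in the values of LEFTY2 and the other members was not tested.

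The difference of the sgRNA effect between foregut and endoderm was tested as an interaction. No member passed an adjusted p of 0.05, against 0.176% of 22708 genes (0.0396% higher and 0.137% lower). An unadjusted p under 0.05 by edgeR was found for 4 of the 10 members and for 1900 of the 22708 genes. LEFTY2 came nearest, with a fitted log2 difference of 8.13 ± 1.53 that rests on the 0 reads of foregut without sgRNA (adjusted p = 0.0606). Over 17 alternatives its adjusted p ranged from 0.000415 to 0.316, and it passed with DESeq2, with all 12 libraries in 1 fit (0.0375), with the replicate number as a block (0.0472), without endoderm sgRNA replicate 3 (0.0350) and without foregut sgRNA replicate 1 (0.00888). Without foregut sgRNA replicate 1 NODAL passed as well, at a log2 difference of 1.59 (adjusted p = 0.0484), and without foregut sgRNA replicate 2 CER1 passed at -7.61 (adjusted p = 0.0131).

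Gastruloids gave the pathway's pattern among nuclei. Of 3646 nuclei 3422 were kept, with a median of 16302 unique molecular identifiers (UMIs), and these fell into 9 clusters. There was 1 preparation, so no test was made, and all intervals are exact 95% intervals that cover counting error only. Levels are given as UPM, the UMIs of a gene scaled to 1000000 UMIs of the nuclei summed. Shares of nuclei with a UMI were taken after thinning to 5000 UMIs, which 3197 nuclei reached. Scrublet marked 70 nuclei (2.05%) as doublets, 25 of them in cluster 0, and they were kept.

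Clusters were called by markers. Cluster 0 (530 nuclei) was axial mesoderm-like, with all 6 axial markers (TBXT, NOTO, SHH, FOXA2, CHRD and FOXJ1) highest there. Of other lists, 2 of the 3 endoderm markers measured, 1 of 5 neuromesodermal and 1 of 5 presomitic markers were also highest in cluster 0. Cluster 8 (494 nuclei) was presomitic mesoderm-like by TBX6 and MSGN1, cluster 6 (398 nuclei) neuromesodermal-like by NKX1-2 and FGF17, and cluster 5 (324 nuclei) segmenting mesoderm-like by PCDH8 and RIPPLY1, with the neural gene HES5 also among its leading genes. Those 2 of the 5 segmenting markers were highest there, while 2 were highest in cluster 8 and 1 in cluster 1, so this name rests on part of its list. Cluster 1 (592 nuclei) was paraxial mesoderm-like by EBF1, and clusters 2 and 4 (321 and 689 nuclei) stayed unnamed, as did clusters 3 and 7 with 55 and 19 nuclei. Of the 6 paraxial markers 3 were highest in cluster 1 and 1 each in clusters 3, 4 and 5. PAX3 stood at 661 UPM in cluster 4 and at 572 UPM in cluster 1. Of the 5 neuromesodermal markers 3 were highest in cluster 6 and 1 each in clusters 0 and 7. The names of clusters 1 and 6 thus also rest on part of their lists. The clusters were built from the genes of these nuclei, so levels by cluster are descriptions.

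**Figure D3:**
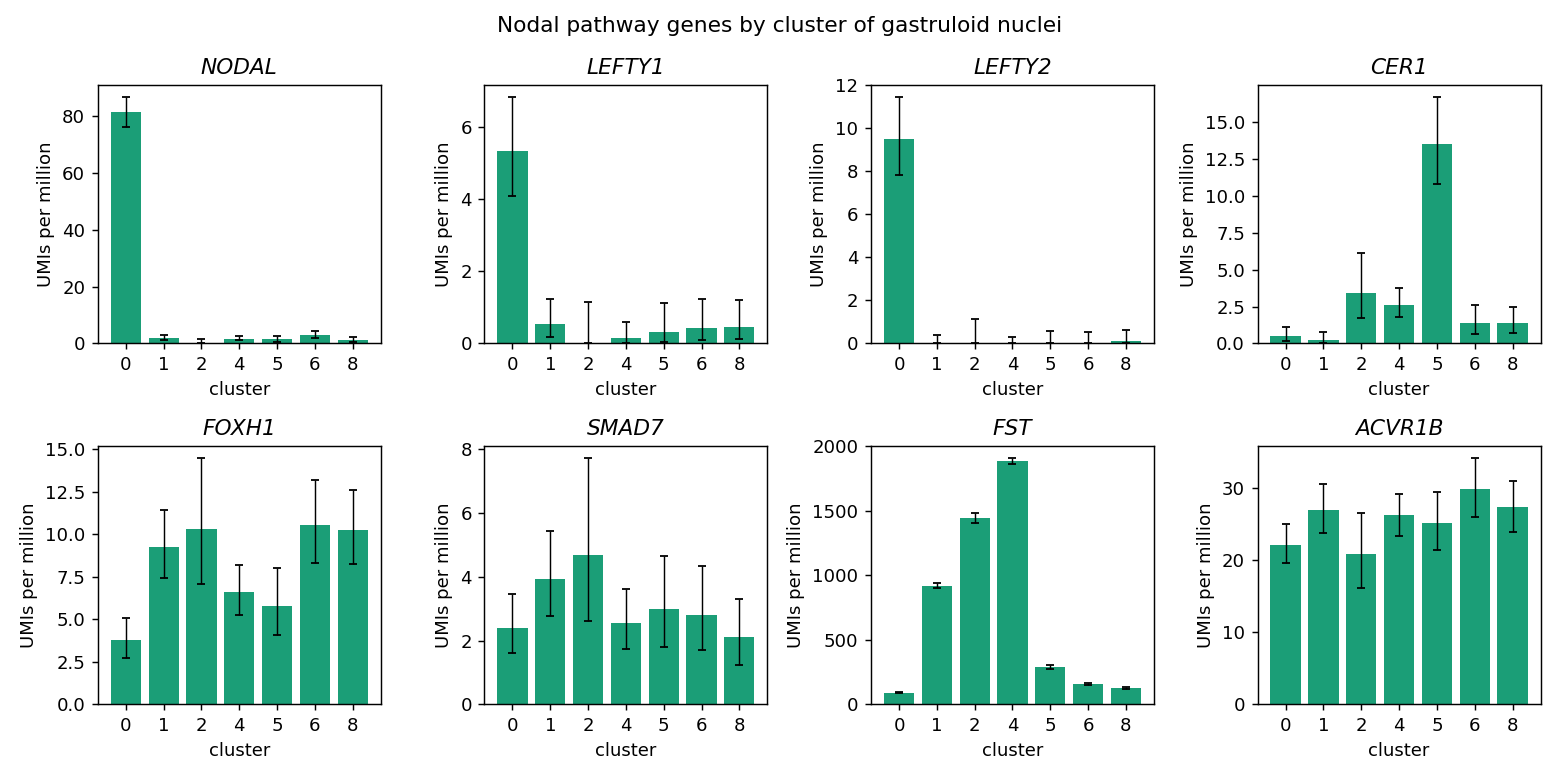
UPM (vertical axes, each starting at 0) of 8 genes in the 7 clusters with at least 100 nuclei after thinning; bars are summed levels and error bars exact 95% counting intervals. NODAL, LEFTY1 and LEFTY2 were highest in cluster 0, CER1 in cluster 5 and FST in cluster 4.

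NODAL, LEFTY1 and LEFTY2 lay in the axial mesoderm-like cluster. Of 1031 NODAL UMIs 948 (91.9%) came from cluster 0, where the level was 81.2 UPM (76.1 to 86.6). In the other clusters with at least 100 thinned nuclei it was 0.312 to 2.95 UPM. After thinning, 20.9% of the nuclei of cluster 0 had a NODAL UMI (17.5% to 24.8%, 40.2% unthinned), against 0.377% to 1.51% in those other clusters.

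Of 112 LEFTY2 UMIs 111 came from cluster 0, at 9.51 UPM (7.82 to 11.5), and the last came from cluster 8. Of 78 LEFTY1 UMIs 62 came from cluster 0, at 5.31 UPM (4.07 to 6.81). LEFTY2 was seen in 3.16% and LEFTY1 in 2.37% of the thinned nuclei of that cluster. Cluster 0 had a median of 21129 UMIs per nucleus against 9289 to 18558 in the others of that size, and the part of depth in the unthinned levels was not tested.

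Within nuclei, 7 of the 15 thinned nuclei with a LEFTY1 UMI and 4 of the 16 with a LEFTY2 UMI also had a NODAL UMI. Of these nuclei 12 of the 15 and all 16 lay in cluster 0, where 20.9% of thinned nuclei had a NODAL UMI, and a difference within the cluster was not tested. No nucleus had UMIs of both Lefty genes. Of the 137 nuclei with NODAL, 46.7% had FOXA2 and 45.98% had TBXT. Low counts limit these shares.

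CER1 was highest in another cluster than NODAL. Of 159 CER1 UMIs 86 came from the segmenting mesoderm-like cluster 5, at 13.5 UPM (10.8 to 16.6), and 6 from cluster 0, at 0.514 UPM (0.189 to 1.12). A CER1 UMI was seen in 4.67% of the thinned nuclei of cluster 5 (2.64% to 7.59%) and in 0 of 506 of cluster 0, where a count of 0 allows a share of nuclei with a UMI at this thinned depth of up to 0.593% (3 counts). Without thinning, 11.1% of the nuclei of cluster 5 and 1.13% of those of cluster 0 had a CER1 UMI. None of the 35 thinned nuclei with CER1 had a UMI of NODAL, LEFTY1 or LEFTY2. With so few nuclei, a lower share of NODAL among them was not detectable at this depth.

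FST was the most abundant member in the nuclei, with 41252 UMIs, or 699.6 UPM, and a UMI in 61.8% of thinned nuclei. The level was 1883 UPM (1859 to 1908) in the unnamed cluster 4, where 95.6% of thinned nuclei had it, and 89.0 UPM (83.7 to 94.6) in cluster 0, where 17.8% had it. Clusters 2 and 1 followed at 1443 and 918 UPM. In the presomitic and neuromesodermal-like clusters it was 123 and 156 UPM, and in the segmenting mesoderm-like cluster 289 UPM. FST is among the 10 leading genes of cluster 4, so its level there is part of how that cluster was built.

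The receptor and the intracellular members were spread more evenly. ACVR1B lay between 20.9 and 29.9 UPM in the clusters with at least 100 thinned nuclei, with intervals that overlap for most. FOXH1 lay between 3.77 UPM (2.74 to 5.06) in cluster 0 and 10.5 (8.29 to 13.2) in the neuromesodermal-like cluster 6, among the clusters with at least 100 thinned nuclei. SMAD7 lay between 2.096 and 4.69 UPM with intervals that overlap. ACVR1B was seen in 12.0%, FOXH1 in 4.13% and SMAD7 in 1.63% of thinned nuclei.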

How the data were processed

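RNA-seq was analysed from 12 bulk libraries, and RNA and ATAC from 1 gastruloid preparation. Per the methods, the authors aligned bulk reads to hg19 (HISAT2) and kept unique alignments, which featureCounts assigned to genes and transposable elements; the deposited bulk tables hold these counts, not normalized. The deposited gastruloid tables hold UMI counts per gene and nucleus and pooled peak positions, made with Cell Ranger on GRCh38.

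The members and lists were chosen with earlier results of these data known. Counts were tested with edgeR 4.0.16 (R 4.3.3; TMM, quasi-likelihood, robust) per comparison, for genes with at least 3 reads in 1 library; calls needed an adjusted p under 0.05 and a fold over 2, or the adjusted p alone for the interaction. Limma 3.58.1 (voom) and DESeq2 1.42.0 were alternatives. The fits were checked on simulated data with known changes. All members were named; of other pathway genes, the 3 largest rises and falls with a mean of at least 1 CPM; for 4 members, the 3 genes most like them. LHX1 of the pathway list was not matched. Of the gene IDs, 55665 were matched to GENCODE on GRCh37; the others held 0.352% to 0.526% of reads and stayed in. Nuclei needed 1000 UMIs, 200 genes and at most 25% mitochondrial UMIs, and were clustered with scanpy 1.11.5 (2000 variable genes, 30 components, Leiden resolution 0.5).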

Additional observations from a re-analysis of the deposited data

How the results depend on the processing

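Of the log2 differences of the members recomputed under other settings, 806 kept their direction and their side of the threshold, 13 lost and 13 gained a call and 24 changed sign. The number of members called moved in foregut with the sgRNA to 1 with all 12 libraries in 1 fit, and in the difference between stages to 1 with DESeq2, with all 12 libraries in 1 fit and with the replicate block, and to between 0 and 2 without 1 library. Over all settings it lay between 7 and 9 in endoderm against hESC, between 8 and 9 in foregut against endoderm and between 3 and 6 in foregut against hESC. The cause was not tested.

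Where signs changed, the log2 differences without 1 library ran as follows. In endoderm against hESC, ACVR1B lay between -0.27 and 0.024. In foregut against hESC, FST lay between -0.48 and 0.12 and ACVR1B between -0.12 and 0.22. With the sgRNA in endoderm, NODAL lay between -0.10 and 0.15, LEFTY2 between -0.58 and 0.47 and FOXH1 between -0.14 and 0.077. With it in foregut, NODAL lay between -1.30 and 1.59, CER1 between -7.85 and 1.24 and FST between -0.73 and 0.21. In the difference, NODAL lay between -1.33 and 1.59, CER1 between -7.61 and 1.01 and GDF3 between -3.93 and 0.95. CER1 with the sgRNA in foregut was -2.25 with voom and -2.14 with the replicate block, numbered as labelled or crossed.

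Over all genes, the number called with the sgRNA in endoderm was 7, and 53 with DESeq2, 186 with no low-count filter and 1 with voom. In foregut it was 30, and 11 with voom and 181 with all 12 libraries in 1 fit, and 475 without foregut sgRNA replicate 1. For the difference it was 40, and 230 with DESeq2, 17 with the replicate block and 0 to 766 without 1 library.

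Replicate numbers were not used as pairs in the main fits. Deviations of same-numbered libraries from their group means correlated at 0.035, -0.021 and 0.028 in endoderm and at -0.116 in foregut. With 2 libraries a group the foregut deviations mirror each other, so differently numbered libraries correlated at 0.116. These values cannot decide whether the samples were paired. With the crossed pairing in foregut, an alternative chosen after seeing the data, 80 genes were called.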

Other observations

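The limits of these data are as follows. Foregut and its sgRNA had 2 libraries a group, and leaving out 1 of them moved the number of genes called in foregut with the sgRNA from 30 to between 15 and 475. INHBA, and LEFTY1, LEFTY2 and GDF3 in foregut, rest on 0 to 73 reads over a group. The 2 Lefty genes share most of their sequence and were counted from unique reads. Gastruloid values have no replicate, and levels by cluster depend on the clustering.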
